A study of Rattus norvegicus with 15 samples.

Results

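Fat-forming and bone-forming culture media were compared in rat bone marrow mesenchymal stem cells that had all received aspirin. The comparison takes 6 of the 15 RNA sequencing libraries of the study, chosen by their labels alone: 3 Adi_ASA libraries, from cells in adipogenic differentiation medium with aspirin, and 3 Ost_ASA libraries, from cells in osteogenic differentiation medium with aspirin. The other groups, of 3 libraries each, were Adi and Ost, kept in the same media without aspirin, and untreated Control cells. All cells came from Sprague-Dawley rats, an outbred laboratory strain, and were seeded at passage 3 to 6 and grown to confluence. Because both compared groups carry aspirin, an effect of aspirin of equal size in both media cancels in their difference, while one that depends on the medium does not. The labels do not give the aspirin dose, the time in culture or the composition of the media. They also do not say whether the replicates of a group came from different animals, so the p-values reflect variation among these libraries and it may be purely technical. The members on which the comparison was made are the 14210 Ensembl genes with enough reads to be tested, of 32883 Ensembl genes in the count table.

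Mesenchymal stem cells of the marrow are adherent stromal cells that can give rise to fat cells and to bone-forming osteoblasts. The transcription factor PPAR gamma drives the fat lineage, which ends in cells that take up fatty acids and store triglyceride, and RUNX2 drives the bone lineage, which ends in cells that lay down and mineralise a collagen matrix; each programme tends to hold the other back. Aspirin acetylates the cyclooxygenases and so lowers the synthesis of prostaglandins, which act on both lineages. The count table gives Ensembl identifiers without symbols, and 0 of its rows could be paired with a symbol in the gene table used here, so the fat and bone marker genes could not be looked up, the labelled cell type was not checked against markers, and genes are given below by identifier without a function.

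The libraries of the comparison held 18646021 to 20944009 counted reads in Adi_ASA and 20914616 to 22789300 in Ost_ASA. The groups stood far apart. In a principal component analysis of the 6 libraries on log2 CPM (read counts relative to the TMM-scaled library size), the first component held 87.6% of the variance, with the Adi_ASA libraries at 79.49 to 80.26 and the Ost_ASA libraries at -80.48 to -79.6, and the second held 3.4% and separated replicates within both groups. Pearson correlations of log2 CPM across genes were 0.9866 to 0.9883 between Adi_ASA libraries and 0.9877 to 0.9881 between Ost_ASA libraries, but 0.8776 to 0.8801 between libraries of different media; these are correlations across genes, which are not independent replicates. The biological coefficient of variation between replicates was 10.72% in Adi_ASA and 13.46% in Ost_ASA. Counts were more concentrated in adipogenic medium. The 50 genes with most counts in a library took 27.52%, 26.8% and 26.72% of the counts in the Adi_ASA libraries, against 20.57%, 20.01% and 20.78% in the Ost_ASA libraries, with no overlap, and the single highest gene took 5.5% to 6% in Adi_ASA and 1.69% to 1.73% in Ost_ASA. Ensembl genes with at least 1 read numbered 17261 to 17371 in Adi_ASA libraries and 17054 to 17141 in Ost_ASA libraries, although the Ost_ASA libraries were on average deeper.

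Under aspirin, 9430 of the 14210 genes differed between the media, which is 66.4% (edgeR quasi-likelihood test, adjusted p under 0.05). Of these, 4695 (33.0% of the genes tested) were higher and 4735 (33.3%) were lower in Adi_ASA than in Ost_ASA. The 3 Adi_ASA libraries did not overlap with the 3 Ost_ASA libraries for 69.7% of the genes tested, lying above them for 35.0% and below them for 34.7%. Most differences were moderate: the median absolute log2 fold change over all genes was 0.47, and the median signed value was 0.005. At least 2-fold differences were found for 1836 higher genes (12.9% of those tested) and 1556 lower genes (11.0%), and at least 16-fold differences for 284 higher genes (2.00%) and 180 lower genes (1.27%). In these fold counts a group without any read was set to 3 counts over its 3 libraries, which makes the fold a lower bound; with fitted values in place of bounds, 517 genes rather than 464 differed at least 16-fold. Small differences were more often falls and large ones more often rises in Adi_ASA. Below a log2 difference of 0.5, 1526 called genes were higher and 1765 lower in Adi_ASA, while between 2 and 4 there were 607 higher and 524 lower. With libraries scaled by their totals alone, 43.7% of the called genes were higher in Adi_ASA, against 49.8% with TMM scaling.

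**Figure D1:**
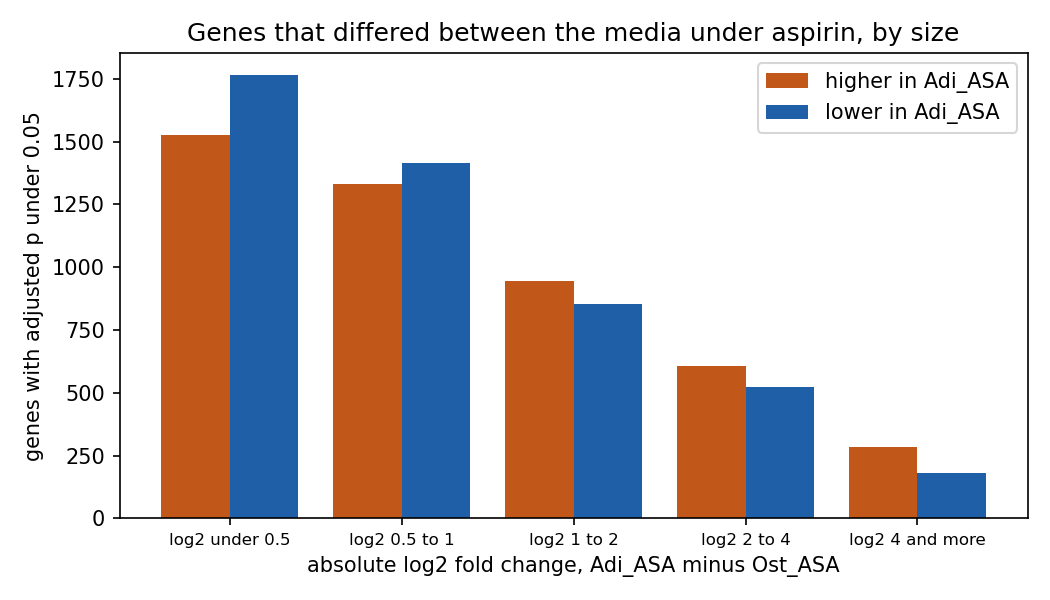
Number of Ensembl genes (vertical axis) that differed between Adi_ASA and Ost_ASA at an edgeR adjusted p under 0.05, by absolute log2 fold change (horizontal axis), with bars for genes higher and genes lower in Adi_ASA. Among the genes with a log2 difference of 4 or more, 284 were higher and 180 lower in Adi_ASA.

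Large differences lay mostly in genes with a low mean level over all libraries. Genes were divided into 4 classes of equal size by their mean log2 CPM over all 15 libraries. In the lowest class, with a median of 1.18 CPM, 52.5% of 3553 genes differed, and 197 were at least 16-fold higher and 119 at least 16-fold lower in Adi_ASA. In the highest class, with a median of 103 CPM, 79.5% of genes differed, with 17 and 13 at least 16-fold higher and lower. The balance also shifted with level, since 1106 genes were higher and 759 lower in Adi_ASA in the lowest class, against 1361 higher and 1465 lower in the highest. With more reads a smaller difference passes the test, so these shares cannot be told apart from depth. The compared libraries also enter the mean that sets the classes. A gene nearly absent from either medium is moved to a lower class by that difference itself. The excess of at least 16-fold differences in the lowest class is thus partly set by how the classes were formed. It is not an independent result.

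Among called genes with a mean of 5 CPM or more in either group and no overlap between the groups, the pair with the highest fitted rise was nearly absent from the osteogenic cultures. ENSRNOG00000055078 had 361, 341 and 305 CPM in the Adi_ASA libraries, against 0 counts in all Ost_ASA libraries. It was thus at least 7455-fold higher in Adi_ASA (edgeR adjusted p = 1.51e-10). Without aspirin it had 154, 158 and 219 CPM in Adi, against 2 reads over the 3 Ost libraries, a 5780-fold difference (95% interval for counting error 1600 to 47700), and it had 4.47 to 5.45 CPM in Control. All Adi_ASA libraries thus lay above all Adi libraries. ENSRNOG00000001001 had 160, 152 and 143 CPM in Adi_ASA, against 0 counts in all Ost_ASA libraries, and was at least 3372-fold higher in Adi_ASA (edgeR adjusted p = 7.12e-10). It too was higher in every Adi_ASA library than in any Adi library, where it had 80.1, 84 and 108 CPM, and it had 0 counts in Ost and 4 reads over the 3 Control libraries. For neither gene could a different size of the gap with and without aspirin be tested well, because the osteogenic side held 2 reads or fewer (interaction, edgeR adjusted p = 0.663 and 1).

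Under the same conditions, the pair with the deepest fitted fall showed the reverse. ENSRNOG00000016716 had 0 counts in all Adi_ASA libraries, against 23.3, 25.8 and 25.9 CPM in Ost_ASA, at least 480-fold lower in Adi_ASA (edgeR adjusted p = 9.03e-17). In the cultures without aspirin it had 1 read over the Adi libraries, against 28.6, 28.5 and 28 CPM in Ost, and it had 2 reads over the Control libraries. ENSRNOG00000021924 had 0 counts in all Adi_ASA libraries, against 21.3, 15.5 and 16.4 CPM in Ost_ASA, at least 340-fold lower in Adi_ASA (edgeR adjusted p = 2.17e-13). It had 0 counts in Adi, against 12.6, 13.7 and 12.2 CPM in Ost, so that each Ost_ASA library lay above each Ost library, and it had 0 counts in Control. Both genes were read in osteogenic medium and were at or near 0 in adipogenic medium and in untreated cells.

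**Figure D2:**
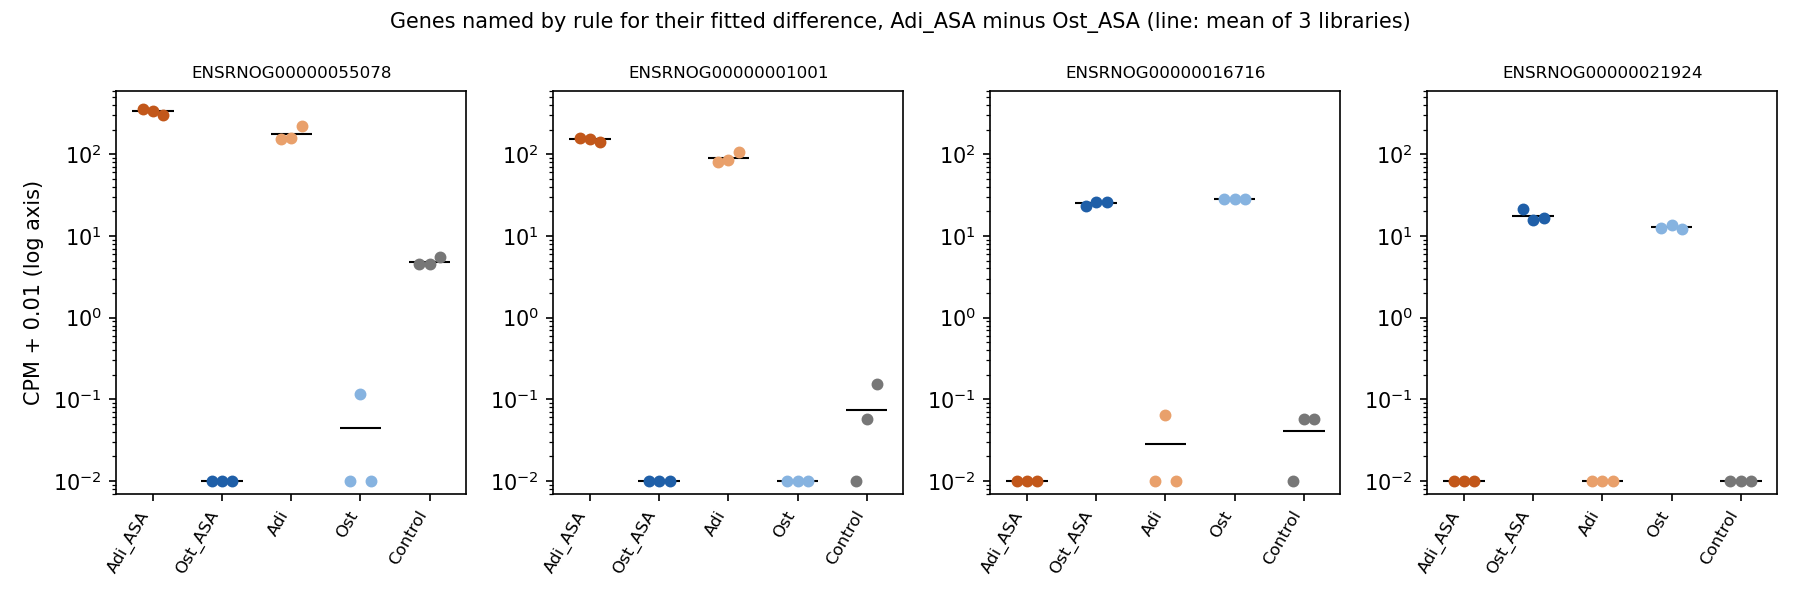
CPM + 0.01 on a log axis in each library of the 5 groups, for the pair of genes with the highest and the pair with the lowest fitted difference among genes with a mean of 5 CPM or more in either group and no overlap, with points for libraries and lines for the mean of 3. Points at the bottom are libraries with 0 counts; ENSRNOG00000055078 had 305 to 361 CPM in Adi_ASA and 0 counts in Ost_ASA.

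Genes read in one medium and without a read in the other were few. A mean of at least 5 CPM in Adi_ASA with 0 counts in Ost_ASA was found for 12 genes, at mean levels of 5.19 to 336 CPM. In Ost without aspirin 8 of these were also at 0 counts and none had more than 4 reads. In Control 1 of the 12 was at 0 counts and 2 had at least 5 CPM. In the other direction, 2 genes (ENSRNOG00000016716 and ENSRNOG00000021924) had 0 counts in Adi_ASA with at least 5 CPM in Ost_ASA. Single libraries bear on both counts, since a gene more easily has 0 counts over 2 libraries than over 3: the 12 genes became 13 to 16 without 1 Ost_ASA library, and the 2 genes became 4 without Adi_ASA replicate 2 and 5 without Adi_ASA replicate 3.

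Untreated cells lay nearer to the adipogenic cultures. This is a description from group means, with no test. Of the 4695 genes higher in Adi_ASA, the Control mean lay nearer to Adi_ASA than to Ost_ASA for 76.2% and between both for 2067 genes, and it lay above both for 2186. Of the 4735 genes lower in Adi_ASA, Control was nearer to Adi_ASA for 80.8%, and lay below both for 2340. The genes with at least 16-fold differences were unequal in this respect. Control was nearer to Adi_ASA for 194 and nearer to Ost_ASA for 90 of the 284 higher genes, but nearer to Adi_ASA for 176 and nearer to Ost_ASA for 4 of the 180 lower genes. Genes much lower in adipogenic than in osteogenic medium were thus low in untreated cells as well, while those much higher comprised genes already high in untreated cells and genes low there. Control differs from both groups in medium and in aspirin, and possibly in time in culture, which cannot be told apart.

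The study also holds the same difference of media without aspirin, in libraries that are not part of the comparison above. Between Adi and Ost, 9532 of the 14210 genes differed (67.1%, edgeR adjusted p under 0.05), 4674 (32.9%) higher and 4858 (34.2%) lower in Adi, and the libraries did not overlap for 70.4%. Of the 9430 genes that differed under aspirin, 8294 differed in the same direction without it, which is 88.0% of the list with aspirin and 87.0% of the list without. They comprised 4068 genes higher and 4226 lower in adipogenic medium. A further 1108 genes passed with aspirin alone and 1210 without aspirin alone. These 2 lists had mostly small differences, with a median absolute log2 fold change of 0.40 where they passed and of 0.15 and 0.16 where they did not. The highest fitted values where they passed were 6.48 with aspirin and 8.03 without. Of these genes, 956 and 1054 had the same sign in both comparisons. The interaction test, of whether the gap between the media differed with aspirin, was passed by 42 and 38 of them, and by 3.01% of all genes tested. The comparisons share no library but they do share 1 estimate of each gene's spread, which by itself can make calls coincide. The larger the difference under aspirin, the more often the gene was called in the same direction without it: 80.4% of called genes below a log2 difference of 0.5, 91.3% between 1 and 2, and 98.3% at 4 and more. An interaction was also more frequent among larger differences. It was found for 1.88% of called genes below 0.5, 6.46% between 1 and 2, 8.05% between 2 and 4, and 6.25% at 4 and more. The difference under aspirin sets these classes and is also a term of the interaction. A large value thus favours an interaction, and the trend is not an independent result.

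Across the 14210 genes the log2 fold changes with and without aspirin had a Pearson correlation of 0.93 and a Spearman correlation of 0.90, given as a description since the points are genes of the same libraries. The slope through the origin was 0.93 for the values with aspirin on those without and 0.94 for the reverse, so neither comparison had the larger differences throughout. Among the 1537 genes that were called and at least 2-fold higher in adipogenic medium in both comparisons, the median log2 difference was 2.19 with aspirin and 2.15 without (2.19 and 2.13 with groups without reads at their bound). Among the 1341 such genes lower in adipogenic medium, the median absolute log2 difference was 2.01 with aspirin and 2.03 without. Of the 4068 genes higher in adipogenic medium in both, 54.8% had a smaller difference under aspirin, and of the 4226 lower ones 52.4%. With scaling by library totals these shares were 41.8% and 69.6%, so their side of an even division depends on the scaling for the higher genes.

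**Figure D3:**
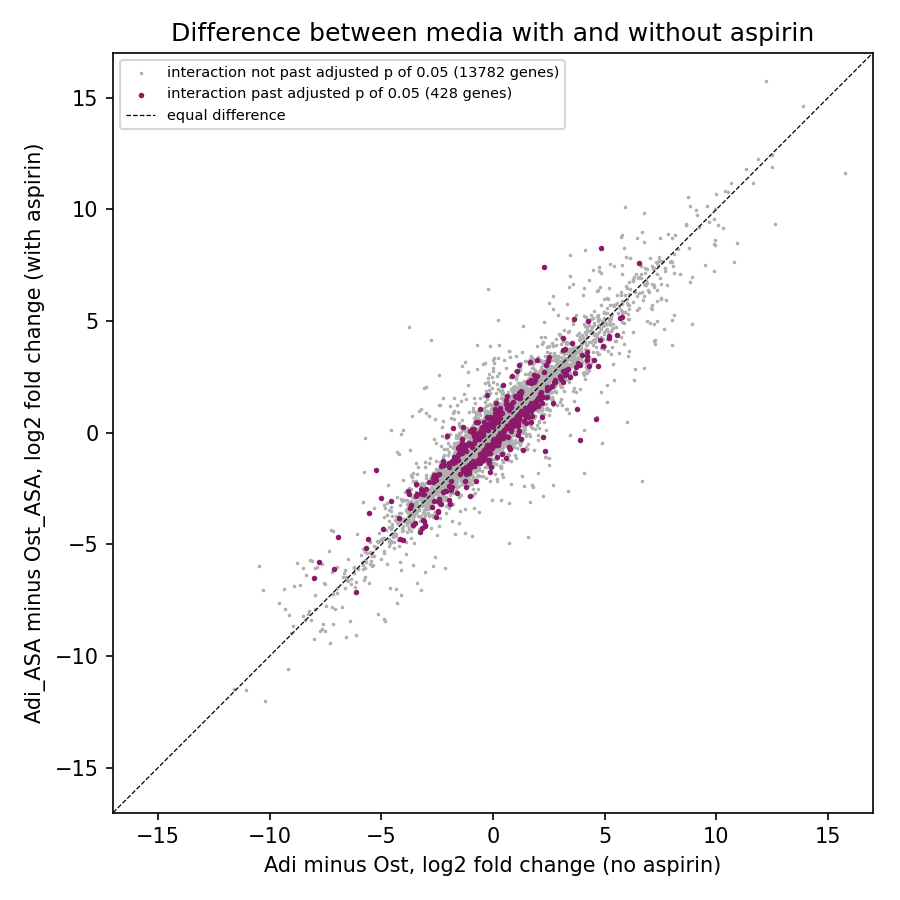
Log2 fold change of 14210 Ensembl genes between the media with aspirin (Adi_ASA minus Ost_ASA, vertical axis) and without aspirin (Adi minus Ost, horizontal axis), with a dashed line of equal difference. Coloured points are the 428 genes with an interaction past an edgeR adjusted p of 0.05; they lie on both sides of the line.

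Genes chosen by the difference between Adi and Ost were then measured in the libraries with aspirin. The counts of those libraries did not enter that difference. They did share the filter, the scaling and the spread estimate behind the calls used in the choice, so the sets were not fully independent of them. Of 292 genes at least 16-fold higher in Adi than in Ost, 287 were called higher in Adi_ASA than in Ost_ASA, against 33.0% of all genes tested, 0 were called lower, and 291 had the same sign. Their median log2 fold change was 5.36 with aspirin and 5.56 in the libraries that chose them (5.02 and 5.14 with groups without reads at their bound). Together they took 10.11%, 9.542% and 9.434% of the counts in the Adi_ASA libraries, against 0.2967%, 0.2917% and 0.3195% in the Ost_ASA libraries. The groups did not overlap (two-sided exact permutation test over 3 libraries a group, p = 0.1, which is the lowest p such a design can give). The same genes took 10.5% ± 0.212 (SD, n = 3) of the counts in Adi, 0.263% ± 0.0171 in Ost and 7.57% ± 0.0196 in Control.

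Of 190 genes at least 16-fold lower in Adi than in Ost, 185 were called lower in Adi_ASA than in Ost_ASA, against 33.3% of all genes tested, and 0 were called higher. Their median log2 fold change was -5.34 with aspirin and -5.35 without (-5.09 and -5.01 at the bound). They took 0.1887%, 0.1881% and 0.191% of the counts in the Adi_ASA libraries, against 6.689%, 6.47% and 6.665% in the Ost_ASA libraries, again without overlap (two-sided exact permutation test, p = 0.1). In the libraries without aspirin the share was 0.155% ± 0.00633 in Adi and 6.19% ± 0.138 in Ost (SD, n = 3), and it was 0.189% ± 0.00502 in Control. The share of the osteogenic set in Ost_ASA lay above that in Ost in every library, but for the 1621 genes at least 2-fold lower in Adi than in Ost the groups overlapped, with 25.68% to 26.13% in Ost_ASA and 25.7% to 25.99% in Ost (two-sided exact permutation test, p = 0.8). The share of the adipogenic set in Adi_ASA lay below that in Adi in every library. So did that of the 1850 genes at least 2-fold higher in Adi than in Ost. They took 31.61% to 32.45% in Adi_ASA and 33.66% to 34.56% in Adi (two-sided exact permutation test, p = 0.1). Adi and Ost chose all these sets, and such a choice favours a lower value outside the libraries that made it. How far this bears on either direction was not tested.

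**Figure D4:**
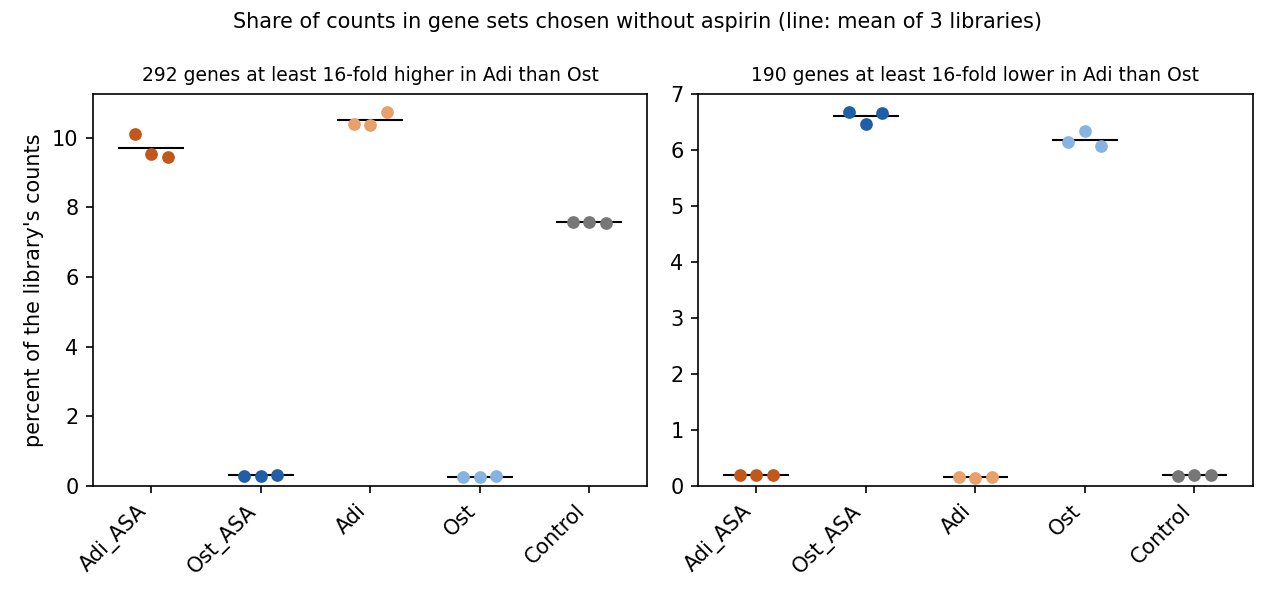
Percent of each library's counts (vertical axis) in the 292 genes at least 16-fold higher in Adi than in Ost and in the 190 genes at least 16-fold lower, with points for libraries and lines for the mean of 3. The first set took 9.434% to 10.11% of counts in Adi_ASA and 0.2917% to 0.3195% in Ost_ASA, and the second 0.1881% to 0.191% and 6.47% to 6.689%.

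Each library was also placed on the line from the Ost mean, at 0, to the Adi mean, at 1, over all genes. The Adi_ASA libraries lay at 0.976 ± 0.00621 and the Ost_ASA libraries at 0.026 ± 0.00514 (SD, n = 3), while Control lay at 0.892 ± 0.00364. The aspirin groups were thus 0.95 apart on this line. On the reverse line, from Ost_ASA at 0 to Adi_ASA at 1, the Adi libraries lay at 0.975 ± 0.00607 and the Ost libraries at 0.025 ± 0.00363, also 0.95 apart, so the groups outside the axis lay inside it by the same amount in both cases.

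The difference between the media itself differed with aspirin for 428 genes (interaction, edgeR adjusted p under 0.05), which is 3.01% of those tested. The estimate was positive, with the adipogenic side relatively higher under aspirin, for 184 genes (1.29%) and negative for 244 (1.72%), and it was at least 2-fold for 75. In 324 of the 428 the media differed in the same direction in both comparisons. Of those higher in adipogenic medium, the difference was smaller under aspirin for 112 genes and larger for 58; of those lower there, it was smaller for 74 and larger for 80. These divisions depend on the scaling, since with library totals alone they were 76 and 107 for the higher genes and 161 and 69 for the lower ones. Without Adi_ASA replicate 3 the interaction was found for 285 genes, and the higher genes divided into 73 and 34. DESeq2 found 602, and 170 and 72 among the higher genes.

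A reversal was rare. Of the 14210 genes, 28 were called in opposite directions in the comparisons, 12 of them higher and 16 lower in Adi_ASA than in Ost_ASA, and 24 of the 28 passed the interaction test. Their differences were small, with a median absolute log2 fold change of 0.38 with aspirin and 0.34 without, and a highest value of 1.14 and 1.33. Without Adi replicate 3 there were 18 such genes. No gene with a log2 difference of 2 or more under aspirin was among the 28.

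The genes with the highest and lowest interaction among those with at least 5 CPM in a group and no overlap of the media in either comparison showed different patterns. ENSRNOG00000017539 had 10.7, 11.5 and 10.8 CPM in Adi_ASA, against 0.0446, 0 and 0.0438 CPM in Ost_ASA, a 368-fold difference that rests on 2 reads in Ost_ASA (95% interval for counting error 102 to 3050). Without aspirin it had 7.03, 6.32 and 7.09 CPM in Adi, against 0.215, 0.105 and 0.355 CPM in Ost, a log2 fold change of 4.85 (SE 0.27, edgeR adjusted p = 6.6e-13). The gap was wider under aspirin on both sides, with every Adi_ASA library above every Adi library and every Ost_ASA library below every Ost library (interaction 3.41, SE 0.59, edgeR adjusted p = 0.00232). Its call was lost without Ost replicate 3 (2.94, edgeR adjusted p = 0.0733). ENSRNOG00000049695 was lower in adipogenic medium in both comparisons, with 0.557, 0.443 and 0.413 CPM in Adi_ASA, against 11.6, 11.6 and 12.7 CPM in Ost_ASA, a log2 fold change of -4.65 (SE 0.24, edgeR adjusted p = 2.94e-13). In Adi it had 0.113, 0 and 0.213 CPM, against 13.9, 12.3 and 16.1 CPM in Ost, so that its fall was smaller under aspirin (interaction 2.28, SE 0.47, edgeR adjusted p = 0.00817). That call rests on 6 reads in Adi and was lost without Adi replicate 2 (1.72, edgeR adjusted p = 0.0857).

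ENSRNOG00000022432 changed its direction. It had 3.79, 4.78 and 3.46 CPM in Adi_ASA, against 6.96, 6.61 and 7.14 CPM in Ost_ASA, and was lower in adipogenic medium under aspirin (log2 fold change -0.78, SE 0.16, edgeR adjusted p = 0.000259). Without aspirin it had 5.68, 4.01 and 5.75 CPM in Adi, against 1.93, 2.15 and 2.04 CPM in Ost, and was higher in adipogenic medium (1.33, SE 0.17, edgeR adjusted p = 7.11e-07). The libraries of the media did not overlap in either comparison, which was a condition for naming the gene. The osteogenic cultures with and without aspirin stood apart, while the adipogenic ones overlapped. The interaction was -2.12 (SE 0.24, edgeR adjusted p = 2.66e-05). ENSRNOG00000015222 had 1.17, 0.936 and 0.929 CPM in Adi_ASA, against 7.45, 7.3 and 6.7 CPM in Ost_ASA (log2 fold change -2.82, SE 0.20, edgeR adjusted p = 7.28e-11). Without aspirin it had 1.58, 1.32 and 1.97 CPM in Adi, against 3.31, 2.83 and 3.95 CPM in Ost (log2 fold change -1.05, SE 0.20, edgeR adjusted p = 7.63e-05). Its fall was deeper under aspirin (interaction -1.77, SE 0.28, edgeR adjusted p = 0.00107), with Control at 3.52 to 5.02 CPM between the 2 aspirin groups.

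**Figure D5:**
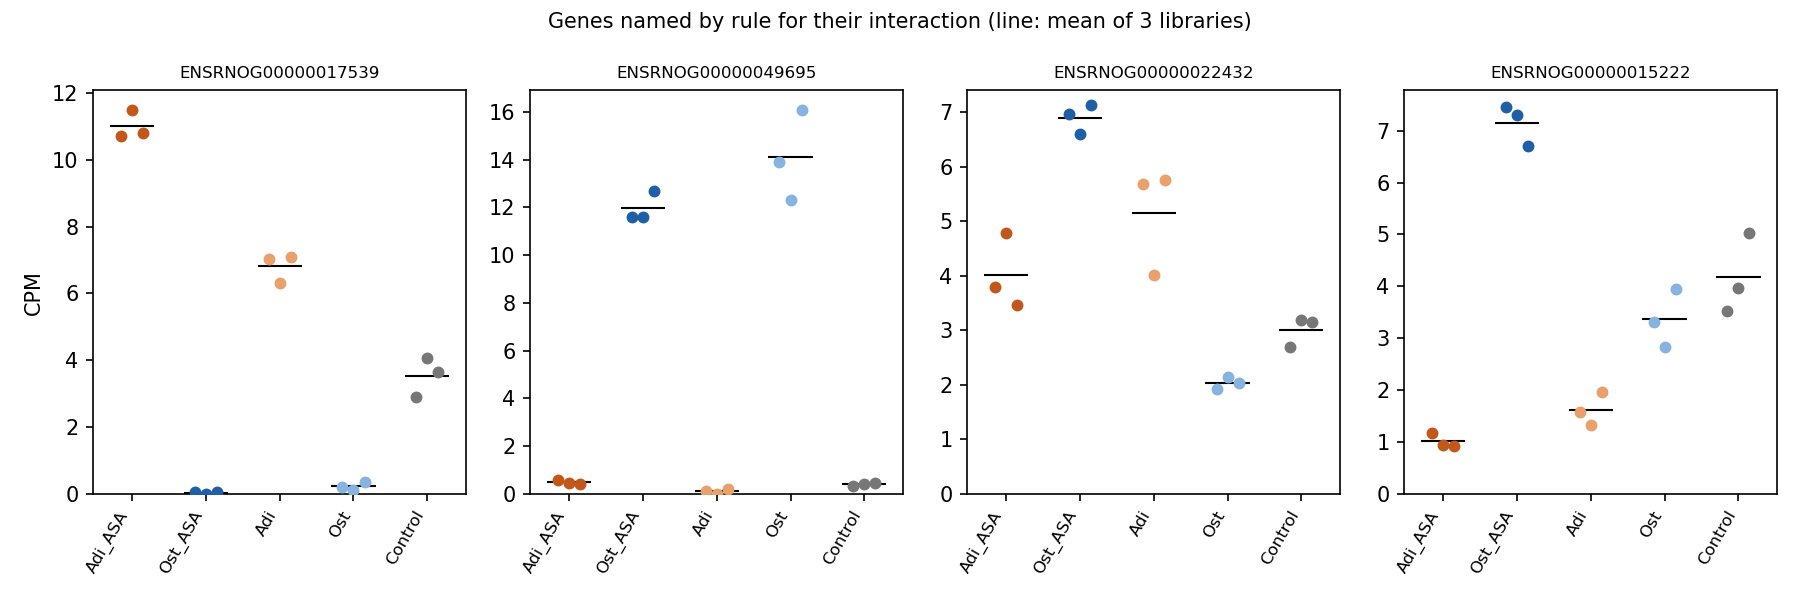
CPM in each library of the 5 groups (linear axes from 0, each with its own range) for the pair of genes with the highest and the pair with the lowest interaction among genes with at least 5 CPM in a group and no overlap of the media, with points for libraries and lines for the mean of 3. For ENSRNOG00000022432 the Adi_ASA libraries (3.46 to 4.78 CPM) lie below the Ost_ASA libraries, and the Adi libraries (4.01 to 5.75 CPM) lie above the Ost libraries.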

How the data were processed

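The authors deposited a table of raw read counts with 34480 rows and 15 libraries. The submitters' processing notes name the build Rnor_6.0 and the tools HISAT2 2.0.4, HTSeq 0.9.1 and DESeq 1.18.0; annotation release and strand setting: not given in the sources used here, so counts of overlapping, antisense or near-identical genes are uncertain. Depth was 18373289 to 22817858 counts per library. The test was edgeR's (version 4.0.16, R 4.3.3): filterByExpr over the 5 groups kept 15543 rows, of which 14210 have an Ensembl identifier and are reported; TMM scaling; 1 quasi-likelihood model of 5 group means; Benjamini-Hochberg adjustment over all 15543 rows at 0.05. Log2 fold changes and interactions are adipogenic minus osteogenic, the interaction being the difference with aspirin minus that without. The SE is the fold change divided by the square root of F. Counting intervals are exact and cover counting error only. Log2 CPM used a prior count of 2. The members and lists were chosen with earlier results of these data known. The 28 gene lists need symbols and could not be matched. By the rule for data without symbols, 2 identifiers in each direction are named for the difference and for the interaction: those with the largest estimate among genes with adjusted p under 0.05, libraries of the media not overlapping and at least 5 CPM in the higher group. The sets measured across libraries, the position of Control, the level classes and the counts of genes without reads were chosen after seeing the data. All replicate pairs differed by more than sampling noise, with a chi-square of 5.41 to 13.5 per degree of freedom. The fit was also run on simulated data in which 200 genes were changed. That is far fewer than the 9430 called here, so the run cannot show how the scaling behaves with this many. Alternatives comprised other scalings, no filter, DESeq2 1.42.0, fewer groups, a replicate block and leaving out single libraries.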

Additional observations from a re-analysis of the deposited data

Results flagged for a closer look

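The gap between the media differed between cultures with and without aspirin for 428 genes by the interaction test. The genes named for it by rule were ENSRNOG00000017539 at 3.41 and ENSRNOG00000049695 at 2.28, where adipogenic medium was relatively higher under aspirin, and ENSRNOG00000022432 at -2.12 and ENSRNOG00000015222 at -1.77, where it was relatively lower, all on the log2 scale.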

How the results depend on the processing

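The count of 9430 genes that differed between Adi_ASA and Ost_ASA stayed between 8951 and 9560 under the 13 alternatives run, and that of 8294 genes with the same direction with and without aspirin between 8008 and 8388 under 19. The interaction count was 285 to 418 when single libraries were left out, 285 being without Adi_ASA replicate 3, and 398 to 602 under the other alternatives. Without a filter on low counts the Adi_ASA libraries lay at 0.959 and the Ost_ASA libraries at 0.039 on the line between the media; the cause was not tested. Replicate numbers were not taken to pair libraries, since deviations from group means correlated at -0.069 to 0.044 over 30 pairs of the same number; with a replicate block, 9360 genes differed between Adi_ASA and Ost_ASA and 398 had an interaction. The 4 genes named for their difference kept their calls under all 13 alternatives, and ENSRNOG00000022432 and ENSRNOG00000015222 kept theirs under all 19. Depth limits the folds of genes at 0 to 6 reads in a group.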

Other observations

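The count table also holds rows without an Ensembl identifier, of an origin that no label explains. Of 1333 such rows with enough reads, 774 differed between Adi_ASA and Ost_ASA (58.1%, edgeR adjusted p under 0.05), with 413 higher and 361 lower in Adi_ASA, and 63 and 51 at least 16-fold higher and lower. An interaction was found for 12 of them, 2 positive and 10 negative.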
